A study of Euphorbia esula with 15 samples.

Results

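The transcripts described here are the leafy spurge (Euphorbia esula) contigs that the deposited annotation assigns to abscisic acid (ABA) in its Hormone column. There were 779 such contigs in 238 components, a component being the group of contigs that the assembly treats as 1 gene, out of 569227 contigs and 223732 components in the whole series. The counts of the ABA contigs were summed within each component and divided by the size factor of the library. Components with a mean above 5 normalized counts at 1 or more of the 4 time points were kept, which left 72 members, 30.3% of the 238. Just inside that limit were PYL1 comp109746_c1, ABCG40 comp92390_c0 and ABA2 comp107029_c0, with highest means of 5.18, 5.15 and 5.10. Just outside it were ABCG40 comp106840_c1 and CYP707A3 comp124024_c1, at 4.70 and 4.22, and 75 components had no count in any library. The study asked how crown buds, the underground adventitious buds of this perennial weed, pass from paradormancy, the arrest imposed by the rest of the plant, to growth once the shoots are cut away. All plants were of the biotype 1984-ND001, had no glyphosate, and were held at 27 °C with a 16 h photoperiod when sampled. Intact plants gave 3 libraries (0 h), and plants 6, 24 and 72 h after the stems were cut at soil level gave 4 each. Each library pooled the buds of several plants, so a value is an average over plants of 1 biotype, and every later time point was compared with the same 3 libraries of 0 h.

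ABA is made from carotenoids. ABA1 (zeaxanthin epoxidase) and ABA4 supply the epoxycarotenoids, 9-cis-epoxycarotenoid dioxygenases (NCED) cleave them, and ABA2 and the aldehyde oxidase AAO3, which needs the cofactor enzyme ABA3, complete the hormone. In Arabidopsis the hormone binds receptors of the PYR/PYL/RCAR family, which then hold back clade A protein phosphatases of type 2C (PP2C) such as ABI1 and HAB1. Some SnRK2 kinases then become active and phosphorylate ABF-type bZIP transcription factors, and a match to the SnRK2 family alone does not show this role. CYP707A hydroxylases and the glucosyltransferase UGT71B6 remove ABA, ABC transporters carry it across membranes, and in buds and seeds the hormone is best known for holding growth back.

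The members take their names from the best Arabidopsis protein match of their contigs, and none has a genomic position, because the assembly was made without a genome. Matches to ABA2, AAO3 and ABCG40 come from large families of dehydrogenases, aldehyde oxidases and ABC transporters, so these names mark similarity and not a shown role in ABA. The Function column divides the 72 members into 18 for synthesis, 5 for catabolism, 19 for transport, 21 for positive and 9 for negative signaling. Of 14 receptor components 7 were kept, and of 17 SnRK2 components 8, against 18 of 89 matched to ABCG40. No component matched to NCED5, NCED6, CYP707A2, CYP707A3, SnRK2.2 or SnRK2.7 was kept. In 59 members over 90% of the component's counts lay on ABA contigs, and in 6 the share was under 50%. Contigs matched to a second Arabidopsis gene were present in 7 members.

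Total expected counts per library ran from 1847115 at 72 h to 8766393 at 24 h. The 72 members held 0.2832% ± 0.0015 of all counts at 0 h (SD, n = 3) and 0.3198% ± 0.0135 at 6 h (SD, n = 4). Their share was 0.3284% ± 0.0085 at 24 h and 0.2519% ± 0.0053 at 72 h (SD, n = 4 each). Every 6 h and 24 h library was above the 3 libraries of 0 h in this share, and every 72 h library below them. Components matched to 8 of 10 shoot apex marker genes passed the limit, the meristem genes STM (comp108384_c0) and KNAT1 (comp126867_c1) among them. Root markers had components for 3 of 7 genes, the highest mean being 3.42 for PLT2 (comp33138_c0). The summed level of the 17 tested shoot apex components ran from 1981 to 2078 normalized counts at 0 h and from 1867 to 2190 at 6 h. It ran from 2017 to 2308 at 24 h and from 2152 to 2268 at 72 h, when every library was above those of 0 h. Single components took different courses. At an edgeR adjusted p under 0.05, 2 of the 17 were higher at 6 h and STM was lower. The shares of all rows were 7.86% and 7.43%. At 24 h 3 were higher, beside 20.2% of all rows, and at 72 h 1 was higher, beside 7.06%. At neither of these times was any lower. The part of shoot apex content in the members' values was not tested. Since whole buds were used, fewer cells of a type and less RNA per cell cannot be told apart in any value here.

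Most ABA receptor members were higher 6 h after shoot removal, and at 24 h all members matched to the PP2C phosphatases that they bind were. A member was called where it passed an adjusted p of 0.05 in edgeR's quasi-likelihood test over all 23239 rows. At 6 h 23 of the 72 members were called, beside 15.3% of all rows; 16 were higher and 7 lower than at 0 h (7.86% and 7.43% of all rows). At 24 h 33 were called, beside 41.8% of all rows, with 18 higher and 15 lower (20.2% and 21.6%). At 72 h 17 were called, beside 13.2% of all rows, with 6 higher and 11 lower (7.06% and 6.1%). The 45.8% of members called at 24 h is near the share of all rows, and the 31.9% at 6 h and 23.6% at 72 h are above it. The members' median log2 change at 6, 24 and 72 h was 0.17, 0.07 and -0.13, beside -0.0042, 0.016 and 0.025 over all rows. From 6 to 24 h 39 members were called, beside 33.4% of all rows, 12 higher and 27 lower (15.4% and 18.0%). From 24 to 72 h 34 were called, beside 42.4%, 8 higher and 26 lower (21.9% and 20.5%). From 6 to 72 h 27 were called, beside 18.6%, 4 higher and 23 lower (10.1% and 8.51%). Over all 4 time points together 51 members were called, beside 53.8% of all rows. Without replicate 2 of 72 h, which held most reads at that time, the count at 72 h was 10. Without replicate 2 of 6 h the count from 6 to 72 h was 18. The highest mean was at 6 h in 27 members, at 24 h in 21, at 0 h in 14 and at 72 h in 10. In 28 members the 72 h mean was the lowest.

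**Figure D1:**
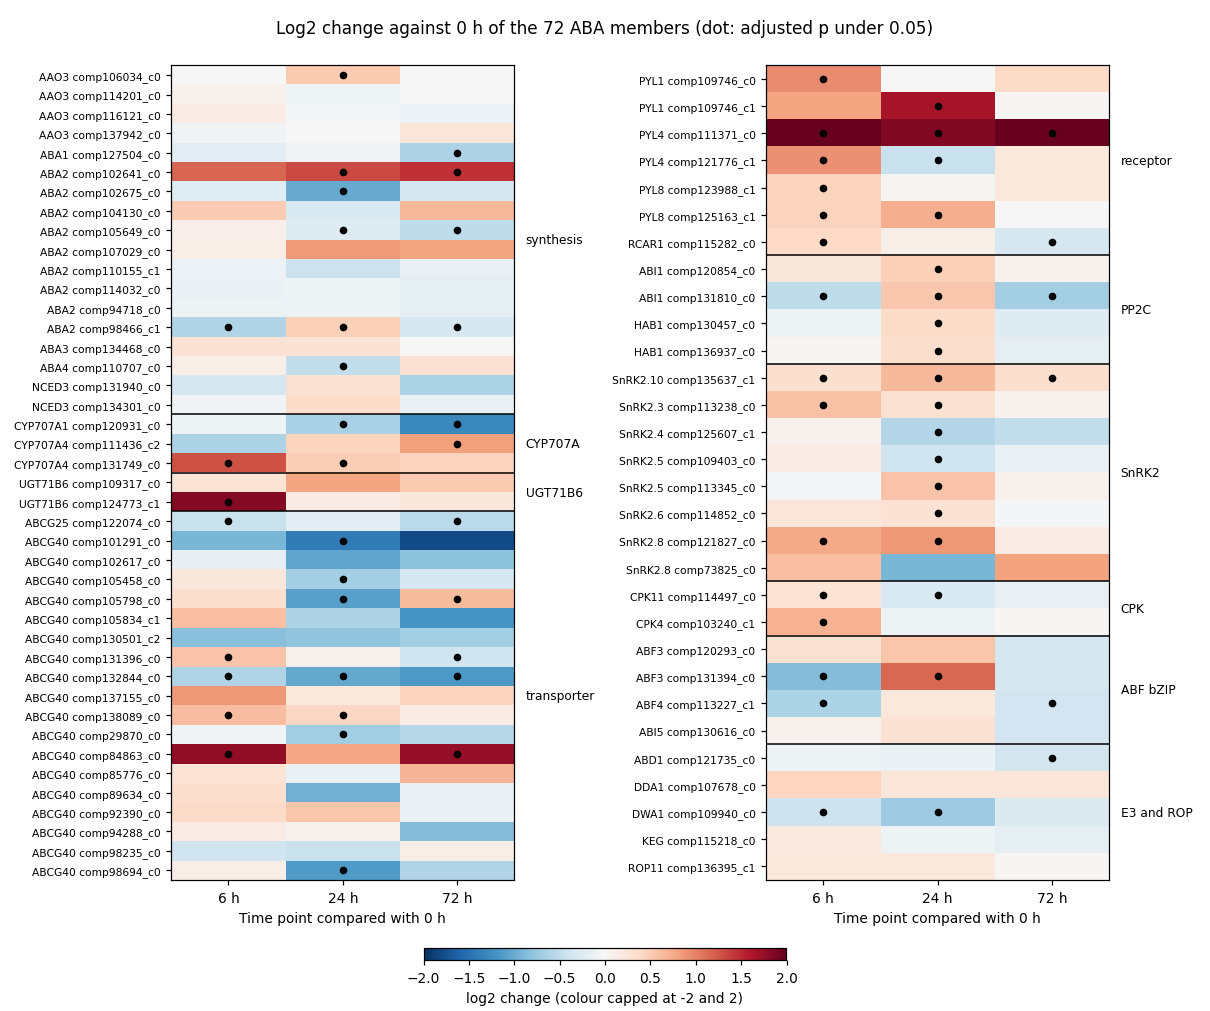
Log2 change against 0 h of all 72 members at 6, 24 and 72 h, grouped by role, with red for higher and blue for lower (colour capped at -2 and 2) and a dot where the edgeR adjusted p was under 0.05. Dots mark 6 of 7 receptors at 6 h and all 4 PP2C members at 24 h.

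**Figure D2:**
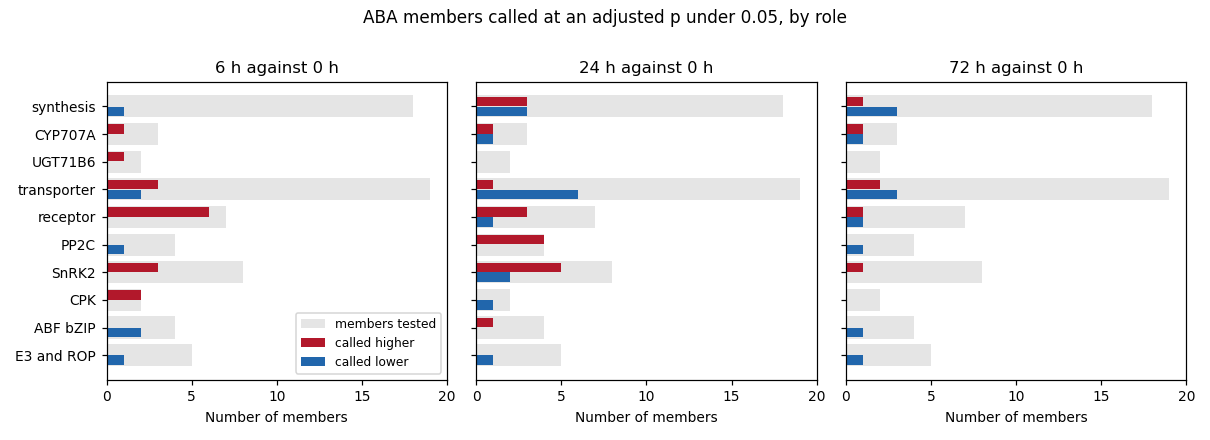
Number of members called higher (red) and lower (blue) than at 0 h in each role, over a grey bar for the number tested, with 1 panel per later time point. Of 18 synthesis members 1 was called at 6 h, against 6 of 7 receptors.

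Of the 18 synthesis members 1 was called at 6 h, beside 15.3% of all rows, and it was lower. At 24 h 3 were called higher and 3 lower, beside 41.8% of all rows, and at 72 h 1 higher and 3 lower, beside 13.2%. The median log2 change of the 18 lay between -0.12 and -0.03 in these comparisons. Values per library are normalized counts throughout, in order of replicate number, and changes are log2 changes ± standard error from the edgeR fit. The synthesis member called in all 6 comparisons was ABA2 comp98466_c1 (AT1G52340), a short-chain dehydrogenase match, with 750.1, 719 and 788 in the 0 h libraries and 526, 467, 530.3 and 481 in those of 6 h. ABA2 comp98466_c1 then stood at 1032, 1083, 1038 and 1023 in the 24 h libraries and 709, 532, 644 and 548 in those of 72 h. All 4 libraries of 6 h lay below those of 0 h, all 4 of 24 h above, and all 4 of 72 h below again, with no overlap. The log2 change against 0 h was -0.60 ± 0.089 (edgeR adjusted p = 3.8e-05) at 6 h and 0.47 ± 0.086 (edgeR adjusted p = 1.2e-04) after 24 h. At 72 h it was -0.32 ± 0.090 (edgeR adjusted p = 0.019), a call lost without replicate 3 of 0 h or replicate 2 or 4 of 72 h. From 6 to 24 h the log2 change was 1.07 ± 0.082 (edgeR adjusted p = 1.3e-09), a comparison that uses the same 6 h libraries.

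Of the enzymes that act before it, ABA4 was called at 24 h and ABA1 at 72 h. ABA1 comp127504_c0 (AT5G67030) was at 189.5, 156 and 181 in the 0 h libraries and 144, 142, 171 and 161 in those of 6 h. ABA1 comp127504_c0 then stood at 191, 159.9, 161 and 163 in the 24 h libraries and 128, 129.6, 98.9 and 92.1 in those of 72 h. Its 72 h libraries were all below those of the other time points, with a log2 change of -0.62 ± 0.13 (edgeR adjusted p = 0.0015) against 0 h and -0.55 ± 0.12 (edgeR adjusted p = 4.4e-04) against 24 h. The 6 h (-0.21 ± 0.12) and 24 h (-0.07 ± 0.11) libraries overlapped those of 0 h. ABA4 comp110707_c0 (AT1G67080), which acts in the formation of neoxanthin, was at 112, 109 and 104 in the 0 h libraries and 117, 116, 131 and 113 in those of 6 h. ABA4 comp110707_c0 then stood at 65.8, 89.9, 70.2 and 80.3 in the 24 h libraries and 145, 116, 131 and 146 in those of 72 h. All 24 h libraries lay below those of every other time point, and it fell to 24 h by a log2 change of -0.50 ± 0.12 (edgeR adjusted p = 0.0023). From 24 to 72 h it rose again, by 0.78 ± 0.12 (edgeR adjusted p = 9.6e-06).

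NCED, the step that usually limits ABA synthesis, was represented by 2 members matched to NCED3 (AT3G14440). NCED3 comp131940_c0 was at 73.7, 61.3 and 39.7 in the 0 h libraries and 41.9, 41.8, 53.8 and 47.9 in those of 6 h. NCED3 comp131940_c0 then stood at 84.0, 61.9, 77.9 and 54.7 in the 24 h libraries and 56.9, 38.2, 35.1 and 11.8 in those of 72 h. No comparison with 0 h was called. The 24 h libraries were all above those of 6 h, with a log2 change of 0.63 ± 0.21 (edgeR adjusted p = 0.026), a call lost in limma and without replicate 1 or 2 of 6 h or replicate 1 or 3 of 24 h. The level fell from 24 to 72 h by -0.93 ± 0.23 (edgeR adjusted p = 0.0024), where the ranges overlapped through 1 library of each. NCED3 comp134301_c0 was at 38.9, 20.005 and 20.7 in the 0 h libraries and 28.3, 23.7, 21.2 and 32.7 in those of 6 h. NCED3 comp134301_c0 then stood at 36.9, 26.2, 32.8 and 50.2 in the 24 h libraries and 33.4, 20.5, 27.1 and 23.6 in those of 72 h. Its ranges overlapped in all 6 comparisons, and the edgeR adjusted p over the 4 time points was 0.23. ABA3 comp134468_c0 (AT1G16540), the molybdenum cofactor sulfurase, was at 54.3, 61.3 and 48.4 in the 0 h libraries and 58.0, 69.1, 76.7 and 57.3 in those of 6 h. ABA3 comp134468_c0 then stood at 69.976, 69.1, 57.3 and 64.7 in the 24 h libraries and 51.043, 51.9, 68.6 and 40.2 in those of 72 h. None of its comparisons was called.

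Of the 4 members matched to the aldehyde oxidase AAO3 (AT2G27150), 1 was called in any comparison. AAO3 comp106034_c0 was at 22.7, 16.6 and 24.2 in the 0 h libraries and 17.3, 23.2, 24.5 and 22.2 in those of 6 h. AAO3 comp106034_c0 then stood at 35.7, 31.2, 27.7 and 31.2 in the 24 h libraries and 19.6, 25.7, 15.9 and 23.6 in those of 72 h. Its 24 h libraries were above all of 0 h, with a log2 change of 0.52 ± 0.20 (edgeR adjusted p = 0.042), but the call was lost under 13 of 23 alternatives, DESeq2, limma and each 0 h library left out among them. AAO3 comp114201_c0 was at 34.0, 26.5 and 27.5 in the 0 h libraries and 30.8, 29.4, 39.3 and 29.2 in those of 6 h. AAO3 comp114201_c0 then stood at 27.8, 27.1, 30.9 and 24.5 in the 24 h libraries and 23.6, 30.2, 33.5 and 28.4 in those of 72 h. Its time points all overlapped. AAO3 comp116121_c0 was at 87.5, 66.3 and 107 in the 0 h libraries and 102, 102, 104 and 92.3 in those of 6 h. AAO3 comp116121_c0 then stood at 86.5, 87.1, 106 and 68.9 in the 24 h libraries and 70.7, 74.1, 100.5 and 94.5 in those of 72 h. Here too every time point overlapped the others. AAO3 comp137942_c0, whose ABA contigs held 55.9% of the counts of its component, was at 29.2, 31.5 and 39.5 in the 0 h libraries and 30.8, 34.6, 31.0 and 30.4 in those of 6 h. AAO3 comp137942_c0 then stood at 38.0, 17.5, 41.9 and 43.5 in the 24 h libraries and 29.4, 37.1, 38.3 and 61.4 in those of 72 h. The log2 changes of these 3 members against 0 h ran from -0.11 to 0.24, and none was called.

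The other 8 members matched to ABA2 took other courses. ABA2 comp105649_c0 was at 479, 507 and 527 in the 0 h libraries and 551, 509, 578 and 539.7 in those of 6 h. ABA2 comp105649_c0 then stood at 405, 423, 489 and 363 in the 24 h libraries and 312, 351, 359 and 399 in those of 72 h. It fell by 72 h without overlap, by a log2 change of -0.51 ± 0.096 (edgeR adjusted p = 7.9e-04). The smaller change at 24 h, -0.26 ± 0.091 (edgeR adjusted p = 0.025), was lost under 6 of 23 alternatives. ABA2 comp102675_c0 was at 67.2, 77.9 and 88.4 in the 0 h libraries and 67.9, 52.6, 73.4 and 78.3 in those of 6 h. ABA2 comp102675_c0 then stood at 38.6, 35.2, 38.6 and 45.7 in the 24 h libraries and 53.0, 60.5, 59.0 and 75.6 in those of 72 h. Its lowest libraries were the 4 of 24 h. The log2 change at 24 h was -1.01 ± 0.16 (edgeR adjusted p = 1.7e-05), and from 24 to 72 h it rose by 0.66 ± 0.16 (edgeR adjusted p = 0.0019). ABA2 comp104130_c0 was at 13.8, 16.6 and 19.6 in the 0 h libraries and 23.4, 20.6, 24.5 and 29.2 in those of 6 h. ABA2 comp104130_c0 then stood at 11.9, 18.1, 10.9 and 12.3 in the 24 h libraries and 25.5, 26.3, 27.1 and 28.3 in those of 72 h. It was called in no comparison with 0 h. It fell from 6 to 24 h by -0.81 ± 0.22 (edgeR adjusted p = 0.0058) and rose from 24 to 72 h by 0.96 ± 0.22 (edgeR adjusted p = 0.0012). ABA2 comp102641_c0, a low member, was at 8.91, 8.29 and 1.31 in the 0 h libraries and 6.17, 16.0, 13.1 and 11.7 in those of 6 h. ABA2 comp102641_c0 then stood at 14.2, 13.5, 14.2 and 13.4 in the 24 h libraries and 15.7, 18.3, 12.8 and 9.45 in those of 72 h. Its log2 changes of 1.32 ± 0.41 (edgeR adjusted p = 0.012) at 24 h and 1.46 ± 0.44 (edgeR adjusted p = 0.028) by 72 h were both lost without replicate 3 of 0 h, the library at 1.31.

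The remaining 4 were called in no comparison. ABA2 comp114032_c0 was at 601, 603 and 652 in the 0 h libraries and 606, 547, 579 and 534 in those of 6 h. ABA2 comp114032_c0 then stood at 578, 557, 606 and 573 in the 24 h libraries and 527, 592, 555 and 511 in those of 72 h. Its libraries lay close together at every time point. ABA2 comp94718_c0 was at 72.9, 64.6 and 64.8 in the 0 h libraries and 45.6, 65.5, 68.5 and 71.3 in those of 6 h. ABA2 comp94718_c0 then stood at 52.8, 70.001, 65.0 and 65.8 in the 24 h libraries and 49.1, 67.3, 55.8 and 61.4 in those of 72 h. All time points overlapped. ABA2 comp110155_c1 was at 89.9, 118 and 88.4 in the 0 h libraries and 79.0, 92.3, 97.8 and 87.6 in those of 6 h. ABA2 comp110155_c1 then stood at 64.1, 61.4, 74.7 and 92.6 in the 24 h libraries and 45.2, 113, 73.4 and 94.5 in those of 72 h. Its 72 h libraries spanned nearly its whole range. ABA2 comp107029_c0, close to the limit, was at 3.24, 0 and 3.27 in the 0 h libraries and 3.70, 2.06, 6.53 and 1.17 in those of 6 h. ABA2 comp107029_c0 then stood at 8.51, 2.26, 4.51 and 4.46 in the 24 h libraries and 5.89, 3.42, 6.38 and 4.72 in those of 72 h. Among the ABA2 matches with the highest counts, comp98466_c1 dipped and peaked, comp105649_c0 fell to 72 h, and comp114032_c0 was not called.

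**Figure D3:**
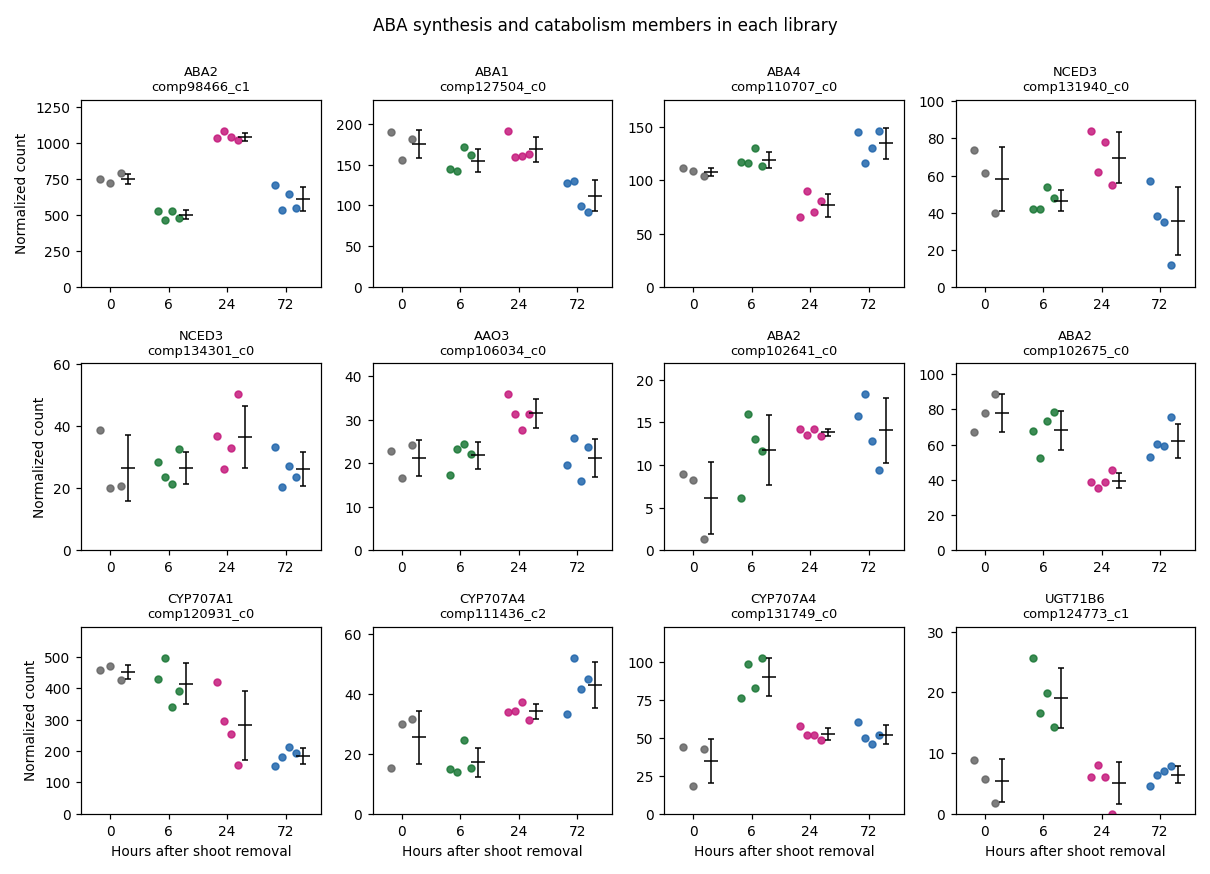
Normalized counts of 8 synthesis and 4 catabolism members in each library (points, with the mean and SD as a black bar beside them) against hours after shoot removal, each panel on its own linear axis from 0. ABA2 comp98466_c1 shows the dip to between 467 and 530.3 at 6 h and the peak of 1023 to 1083 at 24 h, and CYP707A1 comp120931_c0 the fall to between 151 and 212 at 72 h.

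The 3 members matched to ABA 8'-hydroxylases (CYP707A), which start the main route of ABA breakdown, went in different directions. CYP707A1 comp120931_c0 (AT4G19230) was at 459, 471 and 426 in the 0 h libraries and 428, 496, 341 and 392 in those of 6 h. CYP707A1 comp120931_c0 then stood at 421, 297, 254 and 155 in the 24 h libraries and 151, 180.0, 212 and 194 in those of 72 h. Its 6 h libraries overlapped those of 0 h, and those of 24 h and 72 h were all below them. The log2 change was -0.65 ± 0.18 (edgeR adjusted p = 0.0061) at 24 h and -1.29 ± 0.20 (edgeR adjusted p = 1.1e-04) by 72 h. The 24 h libraries were far apart, from 155 to 421, and the call from 24 to 72 h, -0.64 ± 0.19 (edgeR adjusted p = 0.0086), was lost without replicate 1 of 24 h, the highest of them. CYP707A4 comp111436_c2 (AT3G19270) was at 15.4, 29.8 and 31.4 in the 0 h libraries and 14.8, 13.9, 24.5 and 15.2 in those of 6 h. CYP707A4 comp111436_c2 then stood at 34.0, 34.3, 37.3 and 31.2 in the 24 h libraries and 33.4, 51.9, 41.5 and 44.9 in those of 72 h. It moved the other way: all 72 h libraries were above those of 0 h, with a log2 change of 0.82 ± 0.24 (edgeR adjusted p = 0.022) that was lost without replicate 1 of 0 h or replicate 2 of 72 h. From 6 to 24 h it rose by 1.08 ± 0.23 (edgeR adjusted p = 6.5e-04).

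The third, CYP707A4 comp131749_c0, was at 44.3, 18.2 and 42.5 in the 0 h libraries and 76.5, 98.5, 83.2 and 103 in those of 6 h. CYP707A4 comp131749_c0 then stood at 58.1, 52.0, 52.1 and 49.0 in the 24 h libraries and 60.9, 49.7, 46.2 and 51.9 in those of 72 h. All 6 h libraries stood above all others, and the log2 change at 6 h was 1.27 ± 0.18 (edgeR adjusted p = 2.5e-05). Its ABA contigs held 17.0% of the counts of its component. When the whole component was counted the 6 h change was 0.247 and still called, and the call from 6 to 72 h, -0.83 ± 0.17 (edgeR adjusted p = 0.0012), was lost at -0.075. The log2 change at 24 h, 0.48 ± 0.19 (edgeR adjusted p = 0.038), was lost under 8 of 23 alternatives, and it was -0.092 for the whole component. UGT71B6 comp124773_c1 (AT3G21780), which adds glucose to ABA in Arabidopsis, was at 8.85, 5.72 and 1.74 in the 0 h libraries and 25.7, 16.7, 19.9 and 14.3 in those of 6 h. UGT71B6 comp124773_c1 then stood at 6.09, 7.96, 6.02 and 0 in the 24 h libraries and 4.59, 6.32, 7.02 and 7.82 in those of 72 h. Its 6 h libraries too were above all others, with a log2 change of 1.84 ± 0.47 (edgeR adjusted p = 0.0081) that was lost without replicate 3 of 0 h. Its ABA contigs held 31.4% of the component's counts, and for the whole component the 6 h change was 0.652. The other UGT71B6 member, comp109317_c0, had means of 6.65, 8.81, 12.1 and 9.32 at 0, 6, 24 and 72 h and was not called in any comparison.

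Of the 19 transport members 6 were called lower and 1 higher at 24 h, beside 21.6% and 20.2% of all rows, so the calls in both directions together were near the share of all rows. At 6 h 3 were higher and 2 lower, beside 7.86% and 7.43%, and at 72 h 2 were higher and 3 lower, beside 7.06% and 6.1%. Their median log2 change was 0.23 at 6 h, -0.62 after 24 h and -0.40 after 72 h. Of the 19 members, 8 had a mean above 5 normalized counts at all 4 time points. ABCG25 comp122074_c0 (AT1G71960), the ABA exporter of Arabidopsis, was at 155, 141 and 134 in the 0 h libraries and 97.5, 107, 121 and 95.8 in those of 6 h. ABCG25 comp122074_c0 then stood at 107, 119.7, 136 and 132 in the 24 h libraries and 100.1, 97.0, 112 and 85.0 in those of 72 h. All 6 h and 72 h libraries were below those of 0 h. The log2 change was -0.45 ± 0.12 (edgeR adjusted p = 0.012) at 6 h, lost without replicate 1 of 0 h, and -0.53 ± 0.13 (edgeR adjusted p = 0.0056) by 72 h.

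The 18 members matched to ABCG40 (AT1G15520), the ABA importer of Arabidopsis, shared no single course. ABCG40 comp131396_c0 was at 798, 777 and 572 in the 0 h libraries and 1192, 1079.6, 927 and 1002 in those of 6 h. ABCG40 comp131396_c0 then stood at 822, 679, 829 and 690.0 in the 24 h libraries and 591, 571, 483 and 498 in those of 72 h. The 6 h libraries were above all others, with a log2 change of 0.56 ± 0.11 (edgeR adjusted p = 0.0011) against 0 h. From 6 to 72 h it fell by -0.97 ± 0.11 (edgeR adjusted p = 1.0e-06). Its change against 0 h at 72 h, -0.40 ± 0.12 (edgeR adjusted p = 0.022), was lost without replicate 1 or 2 of 0 h or replicate 3 or 4 of 72 h. ABCG40 comp105798_c0 was at 158, 177 and 154 in the 0 h libraries and 209, 212, 194 and 193 in those of 6 h. ABCG40 comp105798_c0 then stood at 81.8, 79.2, 67.5 and 76.6 in the 24 h libraries and 208, 261, 231 and 312 in those of 72 h. All 24 h libraries lay below all others, with a log2 change of -1.08 ± 0.12 (edgeR adjusted p = 1.5e-07). All 72 h libraries were above those of 0 h, by 0.64 ± 0.12 (edgeR adjusted p = 5.2e-04). ABCG40 comp132844_c0 was at 64.0, 84.5 and 77.9 in the 0 h libraries and 55.5, 58.8, 35.9 and 39.7 in those of 6 h. ABCG40 comp132844_c0 then stood at 35.2, 29.8, 44.4 and 40.2 in the 24 h libraries and 25.6, 41.7, 30.3 and 26.0 in those of 72 h. Every later library was below those of 0 h, with a log2 change of -1.02 ± 0.19 (edgeR adjusted p = 1.1e-04) at 24 h and -1.15 ± 0.21 (edgeR adjusted p = 5.1e-04) by 72 h. The 6 h change, -0.60 ± 0.19 (edgeR adjusted p = 0.033), was lost without replicate 2 or 3 of 0 h or replicate 3 or 4 of 6 h.

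ABCG40 comp138089_c0 was at 113, 114 and 83.8 in the 0 h libraries and 168, 165, 139 and 153 in those of 6 h. ABCG40 comp138089_c0 then stood at 149, 113, 128 and 159.5 in the 24 h libraries and 126, 109, 119.6 and 104 in those of 72 h. It was higher at 6 h than in any 0 h library, by 0.62 ± 0.14 (edgeR adjusted p = 0.0025). It was also the 1 transport member called higher at 24 h, by 0.41 ± 0.13 (edgeR adjusted p = 0.016), a call lost without replicate 3 of 0 h. ABCG40 comp105458_c0 was at 110.2, 123 and 58.9 in the 0 h libraries and 117, 117, 111 and 91.1 in those of 6 h. ABCG40 comp105458_c0 then stood at 60.7, 39.3, 69.5 and 68.1 in the 24 h libraries and 74.6, 75.9, 75.0 and 63.8 in those of 72 h. Against 6 h it fell by 24 h without overlap, by -0.92 ± 0.18 (edgeR adjusted p = 4.6e-04). Its change against 0 h, -0.68 ± 0.20 (edgeR adjusted p = 0.0086), was lost without replicate 1 or 2 of 0 h. ABCG40 comp29870_c0 was at 34.8, 31.5 and 17.7 in the 0 h libraries and 29.6, 25.8, 26.1 and 22.2 in those of 6 h. ABCG40 comp29870_c0 then stood at 19.3, 16.7, 13.5 and 16.7 in the 24 h libraries and 21.6, 16.0, 12.8 and 28.3 in those of 72 h. Its 24 h change of -0.70 ± 0.25 (edgeR adjusted p = 0.028) was lost in limma and under 5 other alternatives.

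At low counts, 4 further ABCG40 members had calls. ABCG40 comp105834_c1 was at 6.48, 11.6 and 7.86 in the 0 h libraries and 21.0, 11.3, 6.53 and 10.5 in those of 6 h. ABCG40 comp105834_c1 then stood at 3.97, 5.87, 7.08 and 3.35 in the 24 h libraries and 0, 5.14, 3.19 and 2.36 in those of 72 h. It was called lower from 6 to 24 h, -1.22 ± 0.38 (edgeR adjusted p = 0.014), which was lost in limma, and from 6 to 72 h, -1.79 ± 0.48 (edgeR adjusted p = 0.0089), which was lost in DESeq2. For the whole component these changes were -0.720 and -1.144. ABCG40 comp84863_c0 was at 2.43, 0 and 3.27 in the 0 h libraries and 7.40, 11.3, 8.16 and 3.50 in those of 6 h. ABCG40 comp84863_c0 then stood at 5.11, 3.61, 2.57 and 5.58 in the 24 h libraries and 9.82, 7.99, 4.78 and 11.8 in those of 72 h. Its changes of 1.77 ± 0.55 (edgeR adjusted p = 0.025) at 6 h and 1.76 ± 0.57 (edgeR adjusted p = 0.037) by 72 h were both lost in DESeq2. Only at 6 h and 72 h was its mean above the limit, so both calls rest on the values by which it was kept. Both are among the transport calls counted as higher at these times. ABCG40 comp101291_c0 was at 6.48, 3.31 and 7.86 in the 0 h libraries and 4.94, 2.58, 3.26 and 3.50 in those of 6 h. ABCG40 comp101291_c0 then stood at 2.84, 1.35, 1.93 and 4.46 in the 24 h libraries and 3.93, 2.28, 0 and 0 in those of 72 h. Its 24 h libraries overlapped those of 0 h, and only at 0 h was its mean above the limit. ABCG40 comp98694_c0 was at 11.3, 6.63 and 9.16 in the 0 h libraries and 12.3, 10.8, 9.79 and 8.18 in those of 6 h. ABCG40 comp98694_c0 then stood at 5.11, 1.35, 7.72 and 3.35 in the 24 h libraries and 3.93, 7.99, 4.78 and 4.72 in those of 72 h. Both of the last were called lower at 24 h, by -1.40 ± 0.51 (edgeR adjusted p = 0.027) and -1.13 ± 0.42 (edgeR adjusted p = 0.033), and both calls were lost in DESeq2 and in limma. The other 8 ABCG40 members had means from 2.81 to 16.0 and were not called against 0 h.

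**Figure D4:**
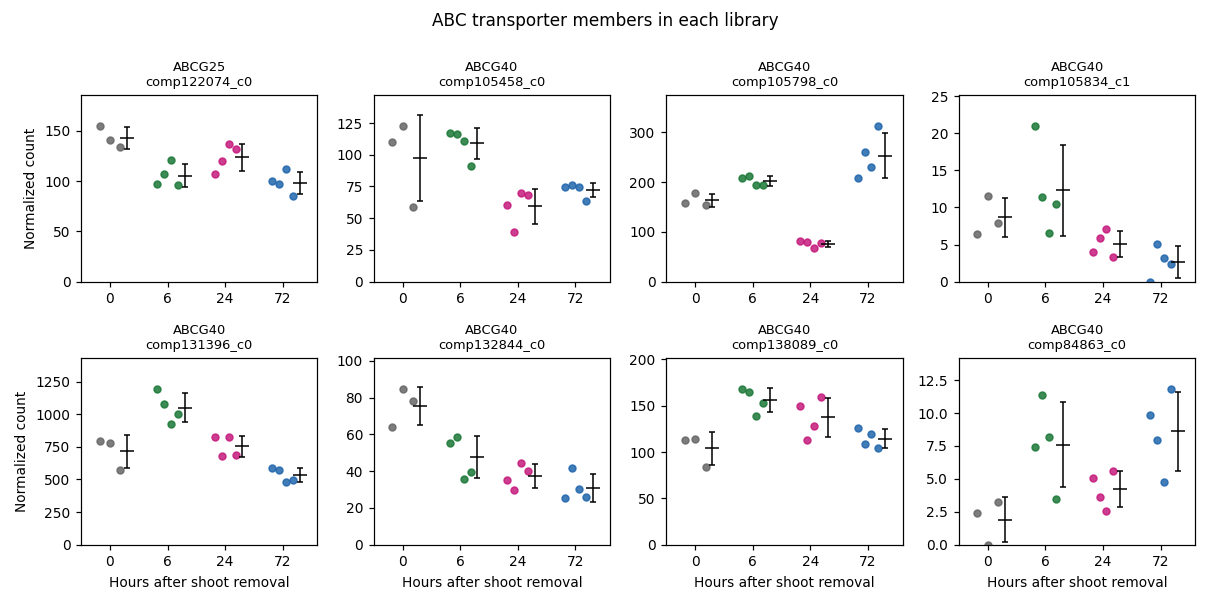
Normalized counts of ABCG25 and 7 members matched to ABCG40 in each library (points, with the mean and SD as a black bar beside them) against hours after shoot removal, each panel on its own linear axis from 0. ABCG40 comp105798_c0 sits between 67.5 and 81.8 at 24 h and between 208 and 312 at 72 h, while ABCG40 comp132844_c0 stays below its 0 h libraries at every later time.

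Receptors rose together at 6 h: 6 of 7 PYR/PYL/RCAR members were called higher and none lower, beside 7.86% and 7.43% of all rows, with a median log2 change of 0.79. PYL1 comp109746_c0 (AT5G46790) was at 110.2, 111 and 79.9 in the 0 h libraries and 205, 172, 173 and 209 in those of 6 h. PYL1 comp109746_c0 then stood at 109, 88.9, 85.6 and 114 in the 24 h libraries and 137, 116, 123 and 146 in those of 72 h. All 6 h libraries were above every other library, and the log2 change at 6 h was 0.94 ± 0.14 (edgeR adjusted p = 3.4e-05). At 24 h it was 0.00 ± 0.14 against 0 h and -0.94 ± 0.12 (edgeR adjusted p = 2.4e-06) against 6 h. PYL4 comp121776_c1 (AT2G38310) was at 228, 240.3 and 249 in the 0 h libraries and 447, 416, 392 and 546 in those of 6 h. PYL4 comp121776_c1 then stood at 223, 149, 131 and 209 in the 24 h libraries and 265, 211, 279 and 399 in those of 72 h. It rose at 6 h by 0.91 ± 0.17 (edgeR adjusted p = 5.4e-04) and fell from 6 to 24 h by -1.35 ± 0.16 (edgeR adjusted p = 5.0e-07). All 24 h libraries were below those of 0 h, but that call, -0.44 ± 0.17 (edgeR adjusted p = 0.045), was lost under 10 of 23 alternatives, DESeq2 and each 0 h library left out among them.

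PYL4 comp111371_c0 was nearly absent before shoot removal, with 3, 0 and 4 expected counts in the 0 h libraries. In normalized counts it was at 2.43, 0 and 2.62 in the 0 h libraries and 29.6, 34.6, 21.2 and 45.6 in those of 6 h. PYL4 comp111371_c0 then stood at 9.08, 7.68, 3.22 and 12.3 in the 24 h libraries and 5.89, 16.0, 3.19 and 35.4 in those of 72 h. All later libraries were above those of 0 h, and the log2 change was 3.95 ± 0.59 (edgeR adjusted p = 3.2e-05) at 6 h. At 24 h it was 1.84 ± 0.73 (edgeR adjusted p = 0.039), lost without any 1 library of 0 h, and by 72 h it was 2.74 ± 0.70 (edgeR adjusted p = 0.0087), lost without replicate 2 of 72 h. The 6 h change was the largest absolute log2 change of any member called at 6 h, and it rests on few reads at 0 h. Only at the later time points was its mean above the limit, so its calls against 0 h rest on the values by which it was kept.

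PYL8 comp123988_c1 (AT5G53160) was at 229.6, 212 and 243 in the 0 h libraries and 332, 289, 274 and 354 in those of 6 h. PYL8 comp123988_c1 then stood at 239, 252, 238 and 224 in the 24 h libraries and 247, 243, 293 and 295 in those of 72 h. It rose at 6 h by 0.44 ± 0.10 (edgeR adjusted p = 0.0033), and 24 h and 72 h overlapped 0 h. PYL8 comp125163_c1, also matched to AT5G53160, was at 169, 167 and 208 in the 0 h libraries and 256, 253, 249 and 243 in those of 6 h. PYL8 comp125163_c1 then stood at 295, 321, 329 and 269 in the 24 h libraries and 188, 170.3, 203 and 187 in those of 72 h. Its log2 change was 0.45 ± 0.10 (edgeR adjusted p = 0.0029) at 6 h and 0.73 ± 0.097 (edgeR adjusted p = 2.2e-06) after 24 h, and at 72 h (0.01 ± 0.11) it was back among the 0 h libraries. The step from 6 to 24 h, 0.28 ± 0.087 (edgeR adjusted p = 0.015), was lost with no filter and without replicate 3 of 24 h. RCAR1 comp115282_c0 (AT1G01360) was at 355, 376 and 435 in the 0 h libraries and 537, 473, 509 and 541 in those of 6 h. RCAR1 comp115282_c0 then stood at 369.9, 398, 472 and 463 in the 24 h libraries and 336, 307, 283 and 338 in those of 72 h. The rise at 6 h, 0.40 ± 0.098 (edgeR adjusted p = 0.0068), was lost without replicate 1 of 0 h. All 72 h libraries were below those of 0 h, but that call, -0.31 ± 0.10 (edgeR adjusted p = 0.044), was lost under 9 of 23 alternatives, DESeq2 among them.

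The receptor not called at 6 h was PYL1 comp109746_c1, at 0.81, 1.66 and 1.96 in the 0 h libraries and 3.70, 2.06, 3.26 and 2.34 in those of 6 h. PYL1 comp109746_c1 then stood at 4.63, 3.61, 5.79 and 6.69 in the 24 h libraries and 3.93, 1.71, 0 and 0 in those of 72 h. Its calls at 24 h, 1.65 ± 0.60 (edgeR adjusted p = 0.025), and from 24 to 72 h, -1.64 ± 0.60 (edgeR adjusted p = 0.026), were both lost in DESeq2. Only at 24 h was its mean above the limit, so both calls rest on the values by which it was kept. From 6 to 24 h 5 of the 7 receptors were called lower and 1 higher, beside 18.0% and 15.4% of all rows. From 6 to 72 h 5 were called lower, beside 8.51%. These comparisons share the 6 h libraries with the first.

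**Figure D5:**
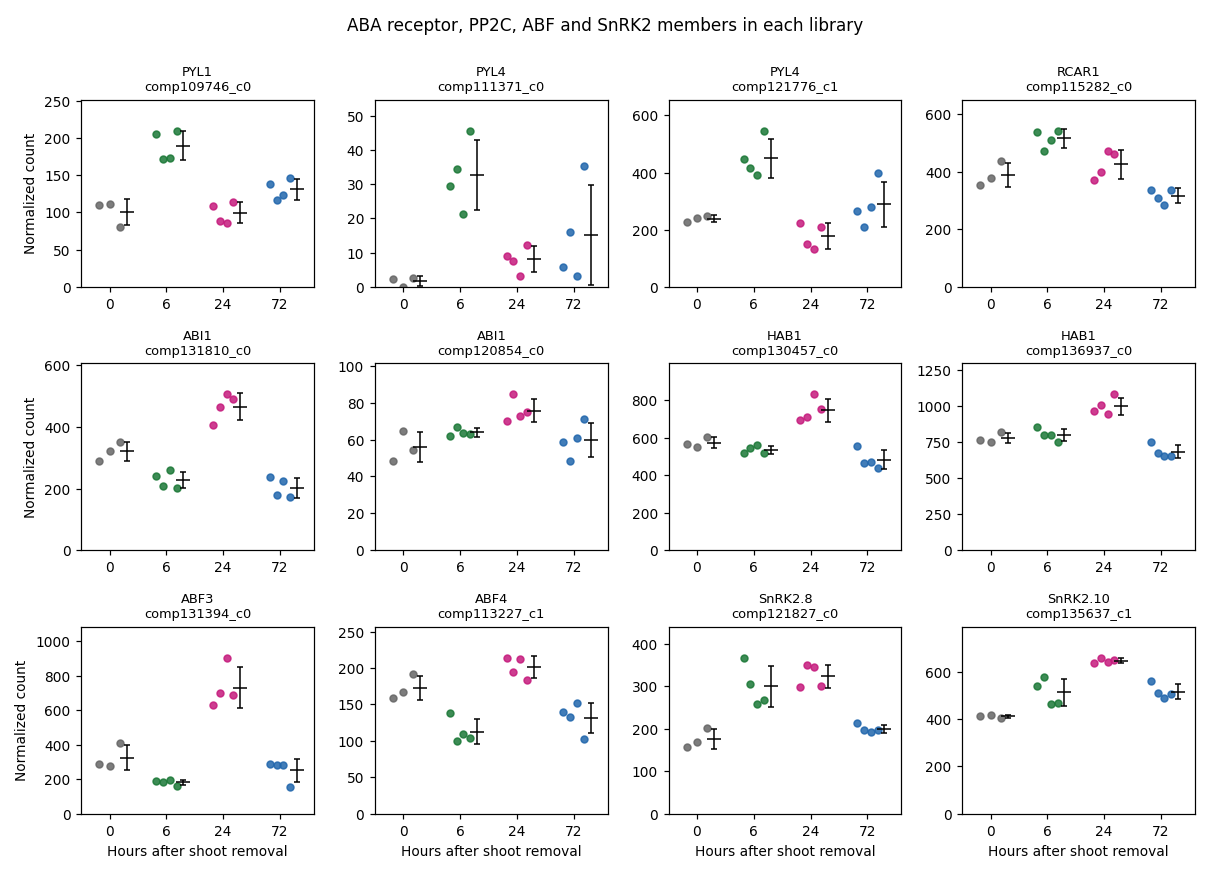
Normalized counts of 12 signalling members in each library (points, with the mean and SD as a black bar beside them) against hours after shoot removal, each panel on its own linear axis from 0. The 4 receptors in the upper row were highest at 6 h and the 4 PP2C members in the middle row and 2 ABF members below them at 24 h, when ABF3 comp131394_c0 reached 629.5 to 903.

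All 4 clade A PP2C members, which oppose ABA signalling when no hormone is bound, were called higher at 24 h, beside 20.2% of all rows, with a median log2 change of 0.42. ABI1 comp131810_c0 (AT4G26080) was at 289, 321 and 353 in the 0 h libraries and 241, 208, 259 and 203 in those of 6 h. ABI1 comp131810_c0 then stood at 406, 463, 505 and 489 in the 24 h libraries and 238, 179, 225 and 172 in those of 72 h. It fell at 6 h by -0.51 ± 0.11 (edgeR adjusted p = 0.0029) and was above 0 h after 24 h, by 0.53 ± 0.11 (edgeR adjusted p = 3.5e-04). At 72 h it was below 0 h again, by -0.68 ± 0.12 (edgeR adjusted p = 3.9e-04), and no later library overlapped those of 0 h. HAB1 comp130457_c0 (AT1G72770) was at 566, 550.3 and 607 in the 0 h libraries and 517, 545, 565 and 518 in those of 6 h. HAB1 comp130457_c0 then stood at 694, 710.5, 832 and 752 in the 24 h libraries and 558, 468, 470.4 and 439 in those of 72 h. All 24 h libraries were above all others, with a log2 change of 0.37 ± 0.084 (edgeR adjusted p = 9.3e-04). HAB1 comp136937_c0 was at 763, 747 and 816 in the 0 h libraries and 854, 800.1, 795 and 750.0 in those of 6 h. HAB1 comp136937_c0 then stood at 963, 1003, 943 and 1078 in the 24 h libraries and 752, 675, 654 and 654 in those of 72 h. Here too all 24 h libraries were the highest, with a log2 change of 0.36 ± 0.077 (edgeR adjusted p = 5.8e-04), and neither HAB1 member was called against 0 h at 6 h or 72 h. ABI1 comp120854_c0 was at 48.6, 64.6 and 54.3 in the 0 h libraries and 61.7, 67.0, 63.8 and 63.1 in those of 6 h. ABI1 comp120854_c0 then stood at 70.4, 84.5, 72.7 and 74.7 in the 24 h libraries and 58.9, 48.5, 60.6 and 71.2 in those of 72 h. Its change at 24 h, 0.47 ± 0.14 (edgeR adjusted p = 0.0082), was lost without replicate 1 of 0 h and when no filter on low counts was used. From 24 to 72 h all 4 were called lower, beside 20.5% of all rows, with a median log2 change of -0.59. The PP2C component HAB1 comp119802_c0, just outside the limit and not a member, had its highest mean at 0 h. It was at 1.62, 4.97 and 7.20 in the 0 h libraries and 2.84, 2.71, 0.64 and 0 in those of 24 h.

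Among the 8 SnRK2 kinase members, 3 were called higher at 6 h, beside 7.86% of all rows. At 24 h 5 were higher and 2 lower, beside 20.2% and 21.6%. SnRK2.8 comp121827_c0 (AT1G78290) was at 158, 169 and 202 in the 0 h libraries and 366, 305, 258 and 269 in those of 6 h. SnRK2.8 comp121827_c0 then stood at 299, 349.5, 345 and 300.1 in the 24 h libraries and 214, 197, 193 and 196 in those of 72 h. It rose without overlap at 6 h, by 0.76 ± 0.12 (edgeR adjusted p = 5.3e-05), and was higher at 24 h too, by 0.87 ± 0.11 (edgeR adjusted p = 1.7e-06). At 72 h (0.17 ± 0.12) it overlapped 0 h. SnRK2.10 comp135637_c1 (AT1G60940) was at 415, 416 and 407 in the 0 h libraries and 542, 577, 465 and 469.7 in those of 6 h. SnRK2.10 comp135637_c1 then stood at 637, 659.5, 644 and 652 in the 24 h libraries and 561, 511, 491 and 505 in those of 72 h. All later libraries were above those of 0 h. The log2 change was 0.33 ± 0.083 (edgeR adjusted p = 0.0082) at 6 h, lost without replicate 2 of 6 h, and 0.65 ± 0.081 (edgeR adjusted p = 8.7e-07) after 24 h. With 0.33 ± 0.084 (edgeR adjusted p = 0.011) it was the 1 SnRK2 member called at 72 h. SnRK2.3 comp113238_c0 (AT5G66880), one of the kinases most tied to ABA in Arabidopsis, was at 213, 190.4 and 254 in the 0 h libraries and 342, 357, 295 and 325 in those of 6 h. SnRK2.3 comp113238_c0 then stood at 264, 275, 293 and 268 in the 24 h libraries and 229.7, 243, 222 and 239 in those of 72 h. The log2 change was 0.58 ± 0.096 (edgeR adjusted p = 1.3e-04) at 6 h. At 24 h it was 0.31 ± 0.094 (edgeR adjusted p = 0.011), lost without replicate 1 or 2 of 0 h and with no filter. SnRK2.6 comp114852_c0 (AT4G33950), known as OST1 in guard cells, was at 451, 458 and 511 in the 0 h libraries and 521, 625, 554 and 544 in those of 6 h. SnRK2.6 comp114852_c0 then stood at 513, 605, 593 and 601 in the 24 h libraries and 518, 495, 439 and 385 in those of 72 h. Its change at 6 h, 0.25 ± 0.096 (edgeR adjusted p = 0.086), was not called, and that at 24 h, 0.28 ± 0.094 (edgeR adjusted p = 0.019), was lost without replicate 1 or 2 of 0 h.

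SnRK2.4 comp125607_c1 (AT1G10940) was called lower at 24 h, at 97.2, 119 and 137 in the 0 h libraries and 159, 112, 114 and 118 in those of 6 h. SnRK2.4 comp125607_c1 then stood at 62.4, 73.6, 90.8 and 92.6 in the 24 h libraries and 70.7, 88.3, 84.5 and 90.7 in those of 72 h. The 24 h change was -0.59 ± 0.15 (edgeR adjusted p = 0.0034), lost without replicate 3 of 0 h. The 72 h libraries were also all below those of 0 h, but that change was not called, -0.49 ± 0.17 (edgeR adjusted p = 0.052). SnRK2.5 comp109403_c0 (AT5G63650) was at 168, 182 and 229 in the 0 h libraries and 248, 214, 202 and 213 in those of 6 h. SnRK2.5 comp109403_c0 then stood at 139.6, 139, 173 and 137 in the 24 h libraries and 169, 183, 172 and 184 in those of 72 h. It was lower at 24 h by -0.40 ± 0.11 (edgeR adjusted p = 0.0061), with 1 library overlapping 0 h, and that call too was lost without replicate 3 of 0 h. SnRK2.5 comp113345_c0 was at 184, 224 and 197 in the 0 h libraries and 239.8, 186, 171 and 178 in those of 6 h. SnRK2.5 comp113345_c0 then stood at 258, 280.3, 305 and 352 in the 24 h libraries and 196, 222, 187 and 248 in those of 72 h. All 24 h libraries were above the others, with a log2 change of 0.57 ± 0.12 (edgeR adjusted p = 5.3e-04). Its ABA contigs held 12.2% of the counts of their component, and when the whole component was counted the 24 h change was -0.189. SnRK2.8 comp73825_c0, a low member, was at 4.86, 4.97 and 3.93 in the 0 h libraries and 8.64, 7.22, 8.16 and 3.50 in those of 6 h. SnRK2.8 comp73825_c0 then stood at 1.70, 3.16, 1.29 and 3.35 in the 24 h libraries and 9.82, 7.99, 1.59 and 14.2 in those of 72 h. It fell from 6 to 24 h by -1.51 ± 0.48 (edgeR adjusted p = 0.014), lost in limma and without replicate 2 of 6 h. From 24 to 72 h it rose by 1.71 ± 0.49 (edgeR adjusted p = 0.0055), where the 72 h library at 1.59 overlapped those of 24 h. Only at 6 h and 72 h was its mean above the limit, so both calls rest on the values by which it was kept.

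The 2 calcium-dependent protein kinase members, CPK4 and CPK11, which phosphorylate ABF factors in Arabidopsis, were both highest at 6 h. CPK4 comp103240_c1 (AT4G09570) was at 338, 358 and 346 in the 0 h libraries and 622, 608, 478 and 515 in those of 6 h. CPK4 comp103240_c1 then stood at 314, 353, 319 and 299.8 in the 24 h libraries and 259, 346, 369 and 446 in those of 72 h. All 6 h libraries were above those of every other time point, with a log2 change of 0.69 ± 0.12 (edgeR adjusted p = 2.1e-04), and from 6 to 24 h it fell by -0.79 ± 0.11 (edgeR adjusted p = 3.8e-06). CPK11 comp114497_c0 (AT1G35670) had means of 631, 764, 508 and 564 at 0, 6, 24 and 72 h. The rise at 6 h, 0.28 ± 0.075 (edgeR adjusted p = 0.012), was lost without replicate 1 or 3 of 0 h and with no filter. At 24 h it was below 0 h, by -0.31 ± 0.074 (edgeR adjusted p = 0.0017).

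All 4 ABF-type bZIP members, matched to factors that bind ABA-responsive promoter elements, had their highest mean at 24 h. All 4 were called lower from 24 to 72 h, beside 20.5% of all rows. ABF3 comp131394_c0 (AT4G34000) was at 288, 278 and 408 in the 0 h libraries and 188, 181, 196 and 164 in those of 6 h. ABF3 comp131394_c0 then stood at 629.5, 698, 903 and 691 in the 24 h libraries and 289, 285, 285 and 154 in those of 72 h. The 6 h libraries were all below those of 0 h and the 24 h libraries all above them, and replicate 4 of 72 h was well below the other 3 of that time point. It fell at 6 h by -0.86 ± 0.16 (edgeR adjusted p = 5.5e-04) and was above 0 h after 24 h, by 1.15 ± 0.15 (edgeR adjusted p = 1.6e-06). From 24 to 72 h it fell by -1.49 ± 0.14 (edgeR adjusted p = 1.4e-08). ABF4 comp113227_c1 (AT3G19290) was at 159.6, 167 and 191 in the 0 h libraries and 138, 99.5, 109 and 104 in those of 6 h. ABF4 comp113227_c1 then stood at 214, 194, 213 and 183 in the 24 h libraries and 139, 132, 151 and 103 in those of 72 h. It fell at 6 h without overlap, by -0.64 ± 0.13 (edgeR adjusted p = 9.3e-04), and rose from 6 to 24 h by 0.85 ± 0.11 (edgeR adjusted p = 3.5e-06), when 1 library overlapped 0 h. Its 72 h call against 0 h, -0.38 ± 0.13 (edgeR adjusted p = 0.049), was lost under 11 of 23 alternatives, DESeq2 among them. ABI5 comp130616_c0 (AT2G36270), known from seeds, was at 46.2, 54.7 and 60.2 in the 0 h libraries and 75.5, 49.0, 50.6 and 58.4 in those of 6 h. ABI5 comp130616_c0 then stood at 59.6, 54.5, 79.2 and 72.5 in the 24 h libraries and 49.1, 40.9, 38.3 and 37.8 in those of 72 h. The fall from 24 to 72 h, -0.66 ± 0.17 (edgeR adjusted p = 0.0032), was its only call between single time points. ABF3 comp120293_c0 had means of 12.5, 18.3, 20.4 and 10.2 at 0, 6, 24 and 72 h. It fell from 24 to 72 h by -0.90 ± 0.30 (edgeR adjusted p = 0.017), lost without replicate 3 of 24 h.

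A further 5 members were matched to E3 ubiquitin ligase parts and the small GTPase ROP11, which act on ABA signalling proteins. Of these, 1 was called at each later time point, always lower. The shares of all rows called lower were 7.43%, 21.6% and 6.1% at 6, 24 and 72 h. DWA1 comp109940_c0 (AT2G19430), part of a ligase that acts on ABI5 in Arabidopsis, was at 131, 129 and 113 in the 0 h libraries and 98.7, 79.5, 101 and 98.1 in those of 6 h. DWA1 comp109940_c0 then stood at 78.7, 74.5, 73.4 and 70.3 in the 24 h libraries and 92.5, 94.7, 95.7 and 129.9 in those of 72 h. Its 24 h libraries were the lowest, with a log2 change of -0.73 ± 0.12 (edgeR adjusted p = 4.3e-05). The 6 h change, -0.42 ± 0.13 (edgeR adjusted p = 0.026), was lost without replicate 1 or 2 of 0 h or replicate 2 of 6 h and with no filter. ABD1 comp121735_c0 (AT4G38480) had means of 246, 229, 224 and 190.0 at 0, 6, 24 and 72 h. It fell by 72 h, by -0.37 ± 0.10 (edgeR adjusted p = 0.016), lost under 3 of 23 alternatives. KEG comp115218_c0 (AT5G13530), the ligase KEEP ON GOING, had means of 794, 905, 739 and 691 at these times. It was called lower from 6 to 24 h, -0.30 ± 0.075 (edgeR adjusted p = 0.0036), and from 6 to 72 h, -0.39 ± 0.077 (edgeR adjusted p = 7.6e-04), but not against 0 h. DDA1 comp107678_c0 and ROP11 comp136395_c1, with means from 21.5 to 42.4, were not called in any comparison.

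Among the members, 3 joined contigs matched to a pair of Arabidopsis genes with an appreciable level of both. The split is given without a test, because reads shared by near copies were divided among contigs by estimation. In ABF3 comp131394_c0, the contigs matched to ABF3 had means of 294, 144, 601 and 217 at 0, 6, 24 and 72 h, and those matched to ABF4 of 30.7, 38.5, 129 and 35.7. At 24 h the libraries ran from 497 to 706 for the first and from 61.1 to 197 for the second, above all 0 h libraries in both. In HAB1 comp136937_c0, contigs matched to HAB1 had means of 663, 642, 761 and 578, and those matched to ABI2 (AT5G57050) of 112, 158, 236 and 106. The ABI2 contigs ran from 190.4 to 268 at 24 h against 77.1 to 135 at 0 h, whereas the HAB1 contigs overlapped between these time points. In SnRK2.10 comp135637_c1, contigs matched to SnRK2.10 had means of 275, 332, 456 and 361, and those matched to SnRK2.6 of 137, 182, 192 and 156. Both were above 0 h in every library of 24 h.

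Of 33 listed genes that ABA induces in Arabidopsis but that lie outside the class, 16 had 31 tested components. At 72 h 13 of these were called lower and 1 higher, beside 6.1% and 7.06% of all rows, and at 6 h 8 were lower and 2 higher, beside 7.43% and 7.86%. At 24 h 9 were lower and 6 higher, near the 21.6% and 20.2% of all rows. The median log2 changes at 6, 24 and 72 h were -0.332, 0.064 and -0.469. The PP2C gene HAI3 (comp127571_c2) had means of 187, 40.0, 92.8 and 37.5 at 0, 6, 24 and 72 h. The log2 change was -2.28 ± 0.19 (edgeR adjusted p = 6.3e-09) at 6 h and -1.01 ± 0.16 (edgeR adjusted p = 1.8e-05) after 24 h. PP2CA, another clade A phosphatase, had 2 tested components. Of these, comp124959_c0 had means of 219, 128, 182 and 112 and fell at 6 h by -0.81 ± 0.16 (edgeR adjusted p = 7.1e-04). The other, comp119217_c0, was called lower at each later time point. Its log2 change was -1.396 ± 0.248 (edgeR adjusted p = 2.96e-04) at 6 h and -0.838 ± 0.218 (edgeR adjusted p = 0.0033) after 24 h. At 24 h comp124959_c0 was not called (-0.26 ± 0.15). HAI3 and PP2CA comp119217_c0 were thus below 0 h at 24 h, when the 4 ABI1 and HAB1 members were above 0 h. The dehydrin ERD10 (comp116004_c0) had means of 3267, 1592, 1625 and 1459 and fell at 6 h by -1.04 ± 0.12 (edgeR adjusted p = 7.9e-07). The homeodomain gene HB7 (comp133471_c0) had means of 496, 484, 1099 and 501 and rose at 24 h by 1.15 ± 0.11 (edgeR adjusted p = 1.2e-08), when the members ABF3 and ABF4 also had their highest means. KIN2 (comp100166_c0) had means of 442, 329, 314 and 139 and was lower at 72 h by -1.69 ± 0.23 (edgeR adjusted p = 2.6e-05). EM6 (comp95081_c0) had means of 58.4, 40.4, 87.7 and 23.7 and was lower then by -1.27 ± 0.24 (edgeR adjusted p = 6.8e-04). Other listed components took other courses. LTP3 comp96897_c0 had means of 1585, 783, 421 and 1656 and was lower at 24 h by -1.93 ± 0.17 (edgeR adjusted p = 8.9e-09). The 2 called higher at 6 h were LTP3 comp111207_c0, by 1.06 ± 0.17, and RD22 comp131961_c1, by 1.29 ± 0.33. LTP3 comp111207_c0 was also called higher at 24 h (1.30 ± 0.16) and at 72 h (0.65 ± 0.18).

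Of the listed carotenoid pathway genes, 13 components of 11 genes were tested. The list includes LCYE, CYP97C1 and VDE, so it is not limited to steps that precede ABA1. At 6 h and at 72 h 1 was called higher and 1 lower, beside 15.3% and 13.2% of all rows called in either direction. At 24 h 2 were called in each direction, beside 41.8% of all rows. LCYE (comp122188_c0) was the component called higher at 72 h, and CYP97C1 (comp133680_c0) was among those called higher at 24 h. The beta-carotene hydroxylase BCH1 (comp106710_c0) had means of 63.8, 30.4, 30.4 and 32.5 and fell at 6 h by -1.08 ± 0.22 (edgeR adjusted p = 0.0014). The lycopene cyclase LCYB had 2 tested components, and comp136348_c0 was higher at 6 h by 0.60 ± 0.12 (edgeR adjusted p = 8.1e-04). The other, comp131242_c0, had higher means of 372, 395, 390 and 352 and was not called in any comparison (0.073 ± 0.090 at 6 h). Among ABA conjugation and transport genes outside the class, 6 components were tested. At each later time point 1 was called lower, beside 7.43%, 21.6% and 6.1% of all rows at 6, 24 and 72 h. Another 1 was called higher at 24 h, beside 20.2% of all rows. The lower one, ABCG31 (comp133263_c0), had means of 31.1, 11.2, 15.6 and 3.72. The higher one, NPF4.6 (comp120075_c0), matched to an ABA transporter, had means of 155, 126, 191 and 126 and a 24 h change of 0.29 ± 0.11 (edgeR adjusted p = 0.034). A second tested NPF4.6 component, comp116797_c0, had a 24 h change of -0.21 ± 0.13 and was not called. HB40 (comp117887_c1), a class I HD-ZIP gene that promotes NCED3 expression in Arabidopsis buds, had means of 135, 199, 188 and 84.2. It was higher at 6 h, by 0.56 ± 0.16 (edgeR adjusted p = 0.017), and at 24 h, by 0.45 ± 0.15 (edgeR adjusted p = 0.020), and below 0 h at 72 h, by -0.64 ± 0.17 (edgeR adjusted p = 0.016).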

How the data were processed

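Poly(A) RNA of leafy spurge crown buds was sequenced in paired ends from 15 libraries in 4 groups. Reads were trimmed by the authors (Sickle). They assembled these and other leafy spurge reads de novo with Trinity, mapped the reads with bowtie and estimated expected counts per contig and per component with RSEM, which divides reads among near copies. Contigs were annotated by BLASTX against nonredundant and Arabidopsis protein databases, and the Hormone, Function and AGI columns were deposited with the counts. The deposited fractions, posterior probabilities of differential expression from EBSeq, are the authors' own comparison and were not used. Groups came from the sample titles; the labels do not say whether the libraries came from separate plants, and the study calls them biological replicates.

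ABA contigs were summed within each component and rounded, every other component kept its deposited expected count, and all were scaled by median-of-ratios size factors from the component counts (21790 rows). Rows with a mean above 5 at any time point entered edgeR's quasi-likelihood test (edgeR 4.0.16, R 4.3.3) in 1 fit of the 15 libraries grouped by time, and p-values were adjusted by Benjamini-Hochberg over all 23239 rows with a threshold of 0.05. Fold changes are given as log2 change ± standard error. Alternatives were TMM scaling, a stricter filter (above 10 normalized counts throughout 1 time point), no filter, DESeq2 1.42.0, limma 3.58.1 on log2(count + 1), a threshold of 0.01, the whole component count, replicate number as a block, only the 2 time points compared, and each library left out in turn. Scripts were tested on simulated data. Total expected counts ran from 1847115 to 8766393 per library, so values of a few counts are imprecise in the shallow libraries. Spearman correlations between replicates, across components, ran from 0.9693 to 0.9855.

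Values in every library are given for each synthesis and CYP707A member, for receptor, PP2C, SnRK2, bZIP and transporter members called over all 4 time points, and for the 5 called members with the largest absolute log2 change in each comparison with 0 h; CPK4 and DWA1 were added after their values were seen. The members and all gene lists were chosen with earlier results of these data known. Counts describe the 72 members that passed the filter, and a member that passed only through its high time points had to be lower elsewhere.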

Additional observations from a re-analysis of the deposited data

Results flagged for a closer look

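In 9 of the 165 groups of 4 libraries tested among the fully described members, 1 library stood far from the other 3 by Dixon's criterion, which chance alone meets in about 1 group in 20. ABF3 comp131394_c0 was at 154 normalized counts in replicate 4 of 72 h, against 285 to 289 in the other libraries of that time. ABCG40 comp105458_c0 was lowest in the same library, at 63.8 against 74.6 to 75.9. At 24 h, replicate 1 held the lowest SnRK2.6 comp114852_c0 value (513 against 593 to 605) and the highest ABA1 comp127504_c0 value (191 against 159.9 to 163), and replicate 3 the highest SnRK2.5 comp109403_c0 value (173 against 137 to 139.6). At 6 h, replicate 3 was highest for CYP707A4 comp111436_c2 (24.5 against 13.9 to 15.2) and for AAO3 comp114201_c0 (39.3 against 29.2 to 30.8), replicate 1 for SnRK2.4 comp125607_c1 (159 against 112 to 118), and replicate 2 for AAO3 comp137942_c0 (34.6 against 30.4 to 31.0).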

How the results depend on the processing

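Of the 173 calls of members in the 6 comparisons between time points, 99 held under all 23 alternatives, counting those that could be fitted for a member, and 74 were lost or changed sign under 1 or more. With the adjusted p under 0.01 in place of 0.05, 20 of 33 calls were left at 24 h, 8 of 17 at 72 h, and 15 of 27 from 6 to 72 h. Leaving out each library in turn gave, against 0 h, between 20 and 24 calls for 6 h, 23 to 34 for 24 h and 10 to 19 for 72 h (10 without replicate 2 of 72 h). It gave 31 to 39 from 6 to 24 h, 28 to 35 from 24 to 72 h, 18 to 29 from 6 to 72 h and 47 to 50 over all 4 time points. DESeq2 called 22, 27 and 14 members at 6, 24 and 72 h, and limma 23, 28 and 20. Counting the whole component gave log2 changes of the other sign in 3 members whose ABA contigs hold a small share of it: CYP707A4 comp131749_c0 (-0.092 at 24 h against 0 h, main value 0.48, and 0.264 from 24 to 72 h, main value -0.04), SnRK2.5 comp113345_c0 (-0.189 at 24 h against 0 h, main value 0.57, -0.012 from 6 to 24 h, main value 0.61, and 0.265 from 24 to 72 h, main value -0.48) and ABCG40 comp137155_c0 (-0.662 from 24 to 72 h, main value 0.23). Without the 6 members under 50% of their component, an alternative chosen after seeing the data, 21, 31 and 17 members were called at 6, 24 and 72 h. Libraries with the same replicate number deviated together weakly at most. Over 21 pairs the correlations of their deviations ran from -0.0239 to 0.1832, with 1 above 0.1, and 12 of 15 libraries correlated best with their own number, a hint from the data and not the design. With the replicate block 23, 34 and 15 members were called at 6, 24 and 72 h, 38 from 6 to 24 h, 34 from 24 to 72 h, 28 from 6 to 72 h and 51 over all 4. Members under 10 normalized counts, mostly ABCG40 matches, are limited by depth.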
